A study of Danio rerio with 12 samples.

Results

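The genes described here encode the machinery that makes, folds, modifies and exports secreted proteins, with the enzymes that mature collagen. They were chosen by gene name: names beginning with p4ha, plod, pdia, fkbp, kdelr, tmed, ssr, creb3l, serpinh1, crtap, lox, or sec followed by a digit, and gpx7, in any case. The mRNA table held 75 such genes among 16951. Of 102 reference names that fit the rule, 27 were not analysed here, among them P4HA3, PDIA3, SSR1, SEC24A and loxl5a. Families and roles below are therefore described by their analysed genes only. By role they comprised 14 collagen enzymes, 13 chaperones and folding enzymes of the endoplasmic reticulum (ER), 10 genes of the translocon, 7 of the COPII coat, 15 cargo receptors, retrieval receptors and SNAREs, 3 CREB3-like regulators and 9 FK506-binding proteins that act mainly outside the ER. The other 4 only share the spelling and belong to unrelated genes. Adult Ekkwill zebrafish had their caudal fins amputated, and mRNA was compared between tissue at 0 days post-amputation (dpa), the uninjured state, and the regenerate at 4 dpa, with no transgene or further treatment named in the labels. Each day had 3 strand-specific polyA+ libraries, and each library pooled several fins.

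A secreted protein enters the ER through the Sec61 channel of the translocon, is folded there by chaperones, disulfide isomerases and prolyl isomerases, and leaves in vesicles built by the COPII coat. Procollagen is a demanding cargo. Prolyl and lysyl hydroxylases modify its chains before they wind into a triple helix, the collagen-specific chaperone Hsp47 (SERPINH1) holds the helix, and lysyl oxidases crosslink the finished fibrils outside the cell. A regenerating fin lays down collagen both in the mesenchyme and in the bone of its rays.

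The libraries held 17928712 to 25223147 reads. Values are CPM (read counts scaled to a common library size) on the authors' adjusted library sizes, and fold-changes are limma differences of log2(CPM + 1), 4 dpa minus 0 dpa, which understate the change of genes near 1 CPM. Adjusted p-values come from limma with Benjamini-Hochberg adjustment over all 16951 genes, and a gene is called where this value was under 0.05. Libraries of the same day differed by more than sampling noise, with a chi-square per degree of freedom of at least 13.9, and the 0 dpa replicate 1 stood farther from the other 0 dpa libraries (49.5 and 41.2) than those did from each other (14.4). All 6 libraries come from fin tissue of mixed cell types, uninjured at 0 dpa and regenerating at 4 dpa. More cells of a type and more RNA per cell therefore cannot be told apart. Markers of other cells moved between the days as well. Of 7 osteoblast marker genes 5 rose and 1 fell, with a summed level of 112 to 142 CPM at 0 dpa and 393 to 474 at 4 dpa. Of 6 epidermal markers 1 rose and 3 fell (47000 to 55100 against 30500 to 35600 CPM), and all 4 mucous cell markers fell (416 to 484 against 104 to 140 CPM). Of 9 genes on the myeloid list 1 rose and 5 fell (477 to 779 against 331 to 409 CPM). Among these falls was coro1b, taken by its name suffix beside CORO1A and not as a myeloid marker itself. Of 4 skeletal muscle markers 2 rose and 2 fell (10.5 to 16.5 against 15.5 to 16.6 CPM), and all 5 Schwann cell markers fell, with a median log2 fold-change of -3.15. The part of these shifts in the results was not tested.

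Most of the 75 genes were upregulated in the regenerate. In limma 64 were called, where 62.1% of all genes were called. By direction 57 rose, against 31.0% of all genes, and 7 fell, against 31.2%. These shares are the background for the counts of every role and list below. The rise was at least 2-fold for 37, against 10.8% of all genes, and only FKBP5 fell as far, against 10.9%. The levels of the days did not overlap in 70 of the 75, where 68.1% of all genes showed no overlap. Their log2 fold-changes had a median of 0.98, while that over all genes was -0.005, with quartiles at -0.52 and 0.48. Together they took 0.5, 0.635 and 0.605% of the reads in the 0 dpa libraries and 1.13, 1.12 and 1.11% in the 4 dpa libraries. Without the 4 unrelated genes the counts were 54 higher and 7 lower of 71. Scaled to total reads instead, the median of all genes moved by 0.24 and 7518 genes rose against 3595 that fell, compared with 5251 and 5282 here. The members then gave 65 higher and 3 lower.

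**Figure D1:**
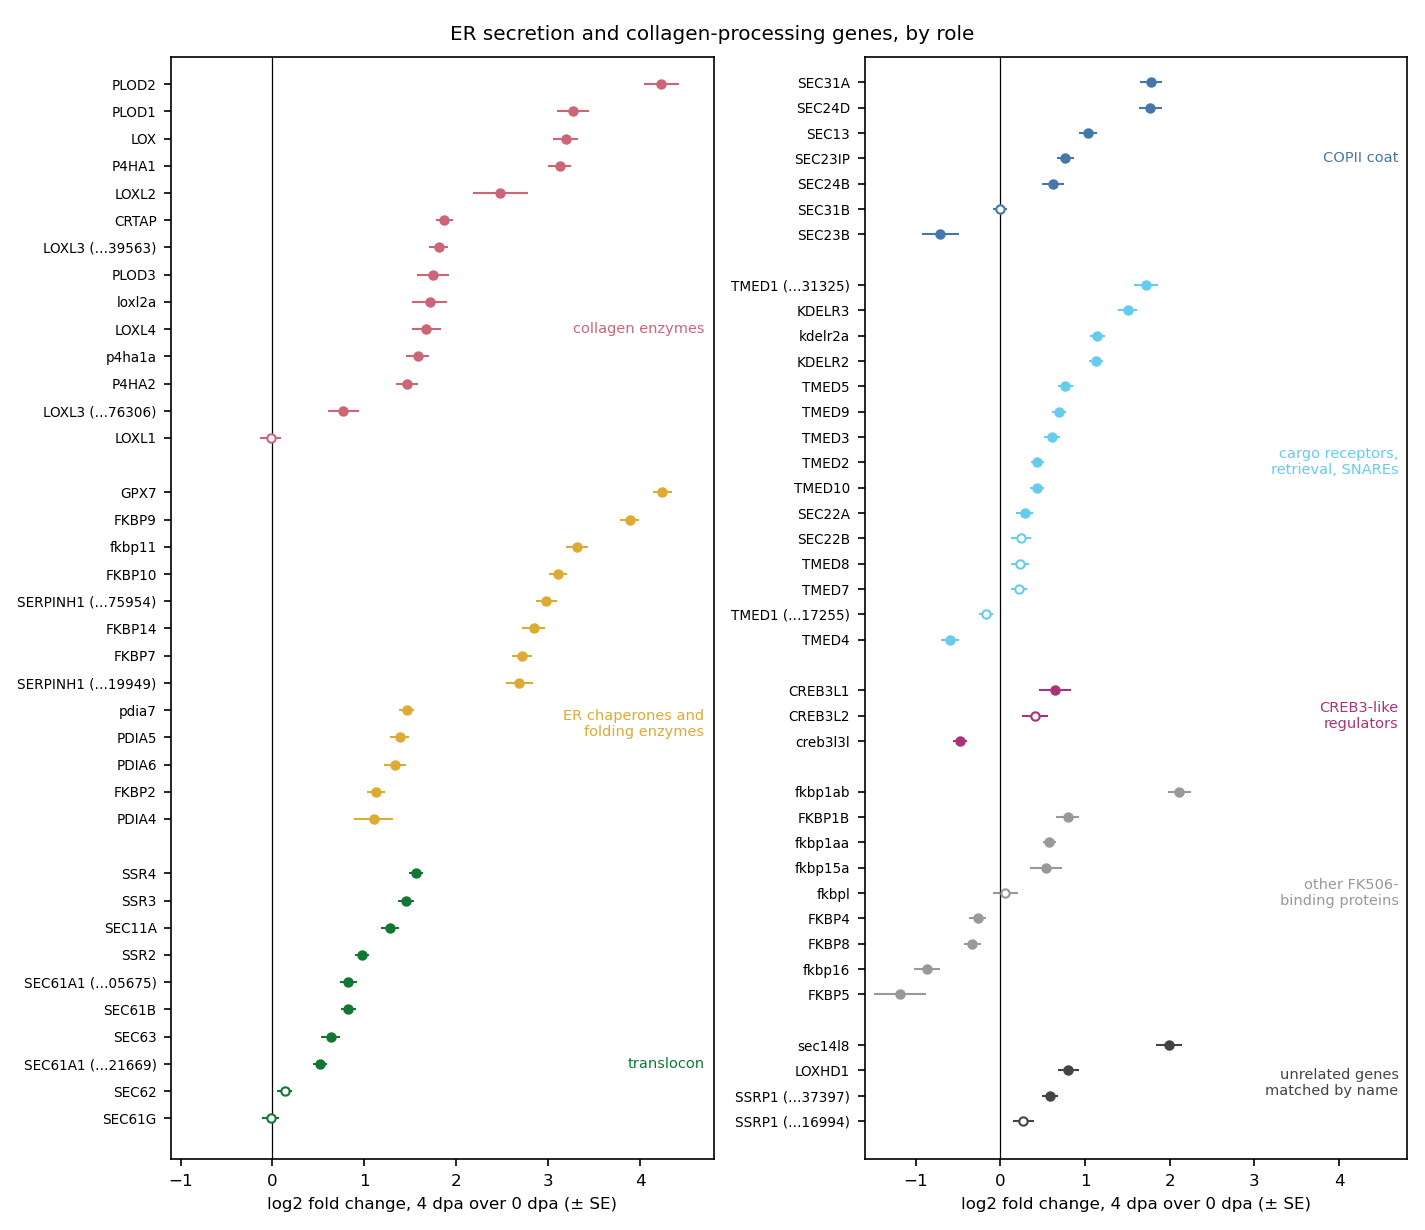
Log2 fold-change of each of the 75 genes, 4 dpa over 0 dpa (x axis, log2 scale), grouped by role, with horizontal bars for the standard error; filled points were called by limma (adjusted p under 0.05) and open points were not. All 13 ER chaperones and folding enzymes lie above 1, while the FK506-binding proteins outside the ER lie on both sides of 0.

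The change differed in size along the pathway. Chaperones and folding enzymes had the highest median log2 fold-change (2.72), followed by the collagen enzymes (1.78), the translocon (0.83), the COPII coat (0.77) and the cargo and retrieval receptors with the SNAREs (0.44). The added 1 CPM lowers roles with weakly expressed genes more than others. In a limma-voom fit of the recovered reads the median was 2.74 for the chaperones and folding enzymes and 1.95 for the collagen enzymes. The ranges of these roles overlapped, and their order describes the medians and was not tested. That order also depends on which names the rule takes. The COPII median was the value of SEC23IP (0.77), a Sec23-binding protein, so the small step from the translocon to the coat rests on that gene. In the chaperone role the 6 ER FK506-binding genes had a median of 2.98 and the 4 disulfide isomerase genes 1.36. Outside the rule, 18 ER folding genes had a median of 1.14 and 15 collagen modification genes 1.70. Among the 200 largest rises of all genes were 12 members, 8 of them chaperones or folding enzymes and 4 collagen enzymes, and none from the transport steps.

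**Figure D2:**
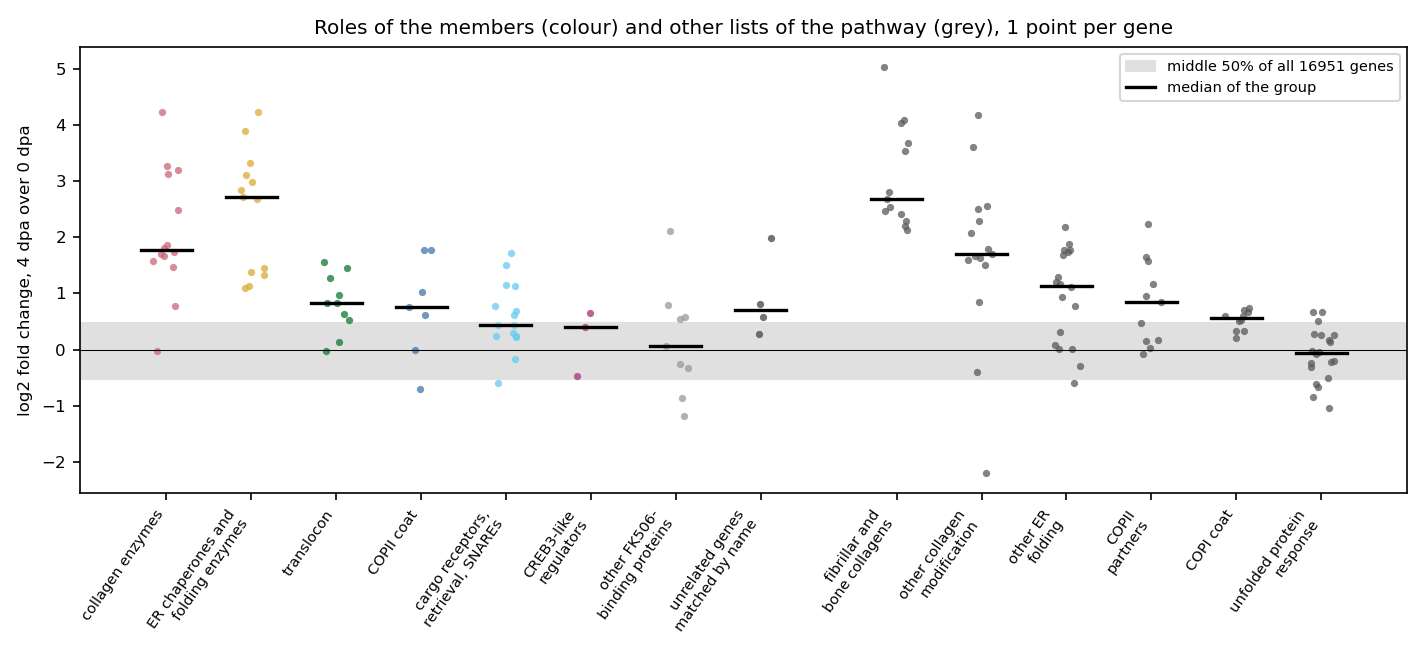
Log2 fold-change of single genes (y axis, log2 scale, 1 point per gene) in the 8 roles of the members (colour) and in 6 other lists of the pathway (dark grey), with a black bar at each median and a grey band between the quartiles of all 16951 genes. The medians of the roles lie between 2.72 for chaperones and 0.06 for the FK506-binding proteins outside the ER, and the unfolded protein response list has its median at -0.06.

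Of the 14 collagen enzymes 13 rose and 1, LOXL1, was not called. They took 0.0155, 0.0192 and 0.0232% of the reads at 0 dpa and 0.103, 0.107 and 0.112% at 4 dpa. The members acting in the ER are the prolyl 4-hydroxylase and lysyl hydroxylase genes with CRTAP. All 7 of these rose, with a median of 1.87. Of the lysyl oxidases, which act outside the cell, 6 of 7 rose, with a median of 1.71. These medians carry the added 1 CPM, which lowers the fold-change of genes at a few CPM, and are not compared. The ratio of the mean CPM, 4 dpa over 0 dpa, ran from 2.83 (P4HA2) to 25.7 (PLOD2) in the first group. It ran from 0.967 (LOXL1) to 9.76 (LOX) in the lysyl oxidases.

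The lysyl hydroxylases form hydroxylysine, the residue from which stable crosslinks are made. PLOD2, which modifies the telopeptides at the chain ends, measured 1.32, 2.78 and 2.73 CPM at 0 dpa and 65.2, 54.8 and 55.6 CPM at 4 dpa. All 4 dpa libraries were far above all 0 dpa libraries, and the log2 fold-change of 4.23 (limma SE 0.19, adjusted p = 1.3e-06) ranked 37 among the rises of all genes. PLOD1, which modifies the helix, had 8.99, 14.1 and 11.3 CPM against 108, 102 and 140 CPM, a log2 fold-change of 3.27 (SE 0.17). PLOD3, which also adds sugars to hydroxylysine, had 2.85, 5.1 and 4.19 CPM against 16.2, 13.5 and 16.6 CPM, a log2 fold-change of 1.75 (SE 0.18). In each of the 3 genes the 0 dpa replicate 1 was the lowest library.

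Prolyl 4-hydroxylase makes the hydroxyproline that keeps the triple helix stable at body temperature, and the P4HA genes encode its catalytic subunit. P4HA1 had 2.64, 3.53 and 2.78 CPM at 0 dpa and 35.3, 33.9 and 30.4 CPM at 4 dpa, for a log2 fold-change of 3.13 (limma SE 0.12, adjusted p = 7.68e-07). P4HA2 had 14.3, 16.9 and 16.9 CPM against 43.8, 41.3 and 51.1 CPM, a log2 fold-change of 1.46 (SE 0.12). The second zebrafish copy p4ha1a was near the lower end of the scale, with 0.476, 0.510 and 0.390 CPM against 3.66, 2.94 and 3.33 CPM. Its log2 fold-change was 1.58 with 1 CPM added and 2.80 in a limma-voom fit of the recovered reads, and the ratio of the mean CPM was 7.22. CRTAP, a partner of the prolyl 3-hydroxylase, had 38.3, 43.0 and 43.1 CPM against 158, 141 and 157 CPM, a log2 fold-change of 1.87 (SE 0.09). None of the 4 genes overlapped between the days.

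Lysyl oxidases start the crosslinking of collagen and elastin. LOX had 8.99, 11.6 and 7.70 CPM at 0 dpa and 95.5, 91.1 and 90.0 CPM at 4 dpa, for a log2 fold-change of 3.19 (limma SE 0.14, adjusted p = 1.05e-06). LOXL2 had 38.9, 57.3 and 103 CPM against 292, 381 and 359 CPM, and its log2 fold-change of 2.48 carried a larger error (SE 0.30) because the 0 dpa libraries spread widely. The log2 fold-change was 1.71 for loxl2a (SE 0.19), 1.67 for LOXL4 (SE 0.16) and 1.81 for the LOXL3 copy ENSDARG00000039563 (SE 0.10). The LOXL3 copy ENSDARG00000076306 rose least, by 0.77 (SE 0.17). LOXL1, linked to elastic fibres in mice, was the exception with 34.2, 45.6 and 42.7 CPM against 39.1, 41.5 and 37.8 CPM. The days overlapped and its log2 fold-change was -0.02 (limma 95% interval -0.284 to 0.247, adjusted p = 0.899), so a change of the size seen in the other lysyl oxidases lies outside the interval.

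**Figure D3:**
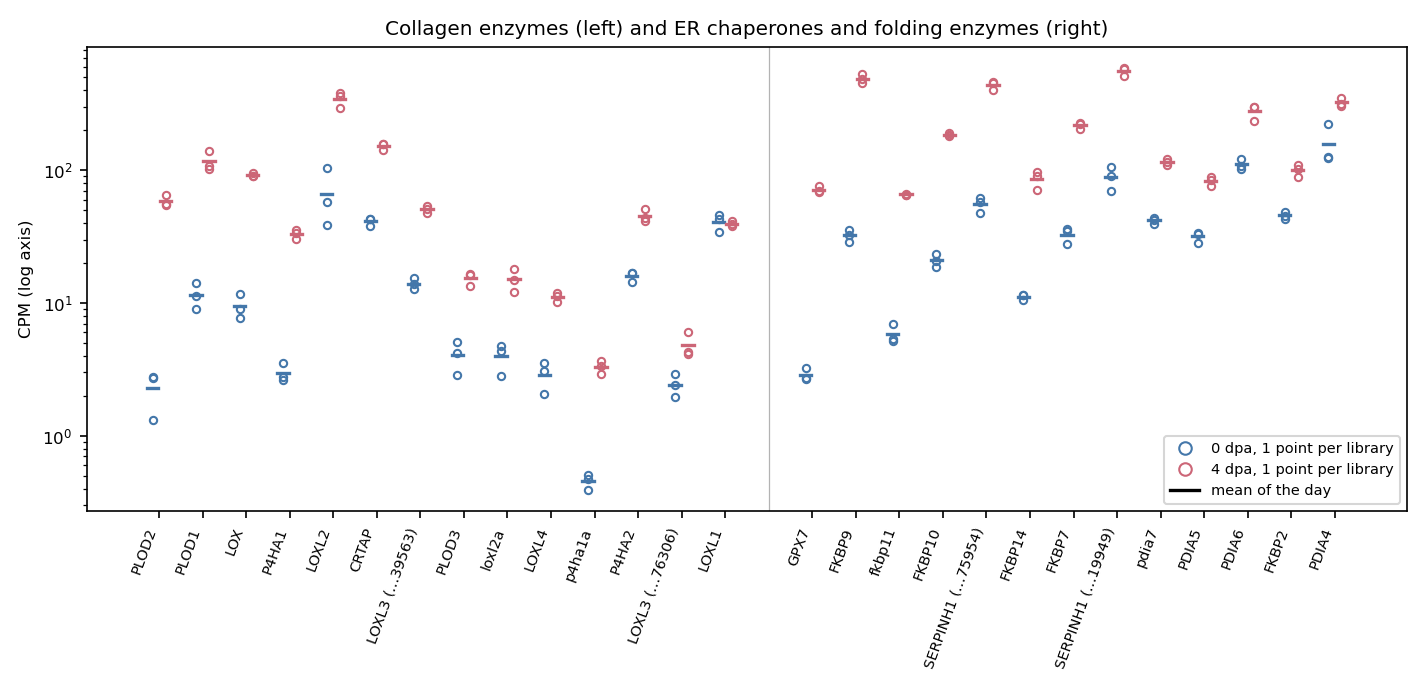
Level of the 14 collagen enzymes (left) and 13 ER chaperones and folding enzymes (right) in CPM on a log axis, with 1 open point per library at 0 dpa (blue) and 4 dpa (red) and a bar at the mean of each day. The days are apart in all but LOXL1. Levels of different genes also depend on transcript length and are not compared.

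All 13 ER chaperones and folding enzymes rose, each by more than 2-fold, and no 4 dpa library overlapped a 0 dpa library. Their share of the reads went from 0.0645, 0.0492 and 0.0556% at 0 dpa to 0.339, 0.326 and 0.321% at 4 dpa. GPX7, an ER peroxidase that oxidises disulfide isomerases, had 2.70, 2.74 and 3.22 CPM at 0 dpa and 76.2, 69.5 and 68.4 CPM at 4 dpa. Its log2 fold-change of 4.24 (limma SE 0.10, adjusted p = 8.45e-08) was the largest of the 75 genes and ranked 36 among the rises of all genes, just before PLOD2. The ratio of the mean CPM, without the added 1 CPM, had the other order, 25.7 for PLOD2 and 24.8 for GPX7. Both copies of SERPINH1, the Hsp47 gene, rose. The copy ENSDARG00000075954 had 47.7, 57.2 and 62.1 CPM against 454, 398 and 464 CPM (log2 fold-change 2.98, SE 0.11), and the copy ENSDARG00000019949 had 105, 69.5 and 89.6 CPM against 586, 573 and 514 CPM (2.69, SE 0.15).

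The ER members of the FK506-binding family are prolyl isomerases, which turn the prolines that slow collagen folding. All 6 rose, with a median log2 fold-change of 2.98. FKBP9 led them with 29.0, 32.7 and 35.6 CPM at 0 dpa and 485, 451 and 525 CPM at 4 dpa, for a log2 fold-change of 3.89 (limma SE 0.10, adjusted p = 1.33e-07). The gene fkbp11 had 5.39, 5.15 and 6.92 CPM against 65.2, 66.3 and 65.4 CPM (3.32, SE 0.12). FKBP10, a collagen chaperone known from human brittle bone disease, had 18.8, 20.8 and 23.3 CPM against 183, 190 and 182 CPM (3.11, SE 0.10). FKBP14 (2.84) and FKBP7 (2.72) were close behind, while FKBP2 rose by 1.13 (SE 0.10). The 4 disulfide isomerase genes had a median of 1.36, lower than the 2.98 above but higher than the value of FKBP2. The rise was 1.46 for pdia7, 1.39 for PDIA5, 1.33 for PDIA6 and 1.1 for PDIA4. PDIA4 had 223, 126 and 124 CPM against 305, 351 and 316 CPM, and the high 0 dpa library was replicate 1.

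In the translocon 8 of 10 genes rose, none fell, and the log2 fold-changes had a median of 0.83. The translocon-associated protein (TRAP) complex helps chains enter the channel, and the 3 of its genes analysed here all rose. SSR4 rose by 1.56 (SE 0.08, limma adjusted p = 2.05e-06), SSR3 by 1.45 (SE 0.09) and SSR2 by 0.98 (SE 0.08). The SSR1 gene was not analysed here. SSR4 had 127, 135 and 132 CPM at 0 dpa and 397, 395 and 360 CPM at 4 dpa, so the days were well apart. SEC11A, a catalytic subunit of signal peptidase, rose by 1.28 (SE 0.10), and SEC63, which recruits the luminal chaperone BiP, by 0.63 (SE 0.10).

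Of the 4 genes for the channel itself 3 rose, by 0.52 to 0.83 on the log2 scale. The SEC61A1 copy ENSDARG00000005675 had 62.3, 62.0 and 65.9 CPM against 103, 121 and 112 CPM (log2 fold-change 0.83, SE 0.09), and the copy ENSDARG00000021669 had 347, 320 and 312 CPM against 461, 459 and 464 CPM (0.52, SE 0.08). SEC61B, the beta subunit, had 106, 98.2 and 102 CPM against 179, 175 and 184 CPM (0.83, SE 0.08). SEC61G, the gamma subunit of the same channel, had 332, 373 and 372 CPM against 351, 374 and 324 CPM. Its days overlapped, with a log2 fold-change of -0.02 (limma 95% interval -0.223 to 0.18, adjusted p = 0.846), but with scaling to total reads it was 0.27 and was called (limma adjusted p = 0.0222). SEC62 was not called either (log2 fold-change 0.14, limma adjusted p = 0.175).

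Of the 7 COPII coat genes 5 rose, 1 fell and 1 was not called, where 31.0% of all genes rose and 31.2% fell. The fall, that of SEC23B, lost its call in several alternatives. The median log2 fold-change of the coat was 0.77. SEC24D, the cargo-binding subunit whose loss blocks collagen export in zebrafish cartilage, had 12.7, 15 and 14.6 CPM at 0 dpa and 45.7, 44.5 and 60.1 CPM at 4 dpa, for a log2 fold-change of 1.77 (limma SE 0.14, adjusted p = 1.69e-05). SEC24B, another cargo-binding subunit, had 23.5, 25.4 and 20.9 CPM against 38.7, 29.9 and 39.2 CPM (0.62, SE 0.13). In the outer cage, SEC31A had 8.14, 9.65 and 9.02 CPM against 33.4, 28.1 and 36.9 CPM (1.78, SE 0.13), and its partner SEC13, which also serves the nuclear pore, had 79.1, 95.8 and 94.9 CPM against 190, 196 and 162 CPM (1.03, SE 0.11). SEC31B had 51.1, 54.1 and 50.5 CPM against 48.5, 50.4 and 54.5 CPM, so the days overlapped. Its log2 fold-change was -0.003 (limma 95% interval -0.201 to 0.195, adjusted p = 0.977), and 0.28 with scaling to total reads, where it was called (limma adjusted p = 0.0198). SEC23IP, a Sec23-binding protein, rose by 0.77 (SE 0.10).

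SEC23B, the inner coat subunit that pairs with Sec24, fell. It had 181, 373 and 273 CPM at 0 dpa and 157, 153 and 167 CPM at 4 dpa, for a log2 fold-change of -0.71 (limma SE 0.22, adjusted p = 0.0218). The days did not overlap, but the 0 dpa libraries ran from just above the 4 dpa level up to 373 CPM. The call was lost without 0 dpa replicate 3 (0.0632), 4 dpa replicate 1 (0.0564) or 4 dpa replicate 2 (0.0619) and with scaling to total reads (0.101), and without 0 dpa replicate 2 the log2 fold-change was -0.46. The SEC23A gene was not analysed here.

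Among the 15 cargo receptors, retrieval receptors and SNAREs 10 rose, 1 fell and 4 were not called. Over all genes 31.0% rose and 31.2% fell. The KDEL receptors, which return escaped chaperones from the Golgi, rose in all 3 cases. KDELR3 had 18.8, 18.1 and 19.0 CPM at 0 dpa and 53.1, 48.2 and 61.0 CPM at 4 dpa, for a log2 fold-change of 1.5 (limma SE 0.11, adjusted p = 1.22e-05). The increase was 1.14 for kdelr2a (131, 151 and 160 CPM against 323, 324 and 316 CPM) and 1.13 for KDELR2 (58.2, 58.7 and 64.8 CPM against 138, 125 and 133 CPM). None of these 3 overlapped between the days.

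The p24 proteins (TMED) are cargo receptors that cycle between ER and Golgi. Of 10 genes 6 rose, 1 fell and 3 were not called, where 31.0% of all genes rose and 31.2% fell. The median of the log2 fold-changes was 0.43. The largest rise was that of the TMED1 copy ENSDARG00000031325, with 0.846, 0.789 and 0.439 CPM against 4.25, 4.55 and 4.6 CPM (log2 fold-change 1.72, SE 0.14, limma adjusted p = 2.2e-05). The limma-voom value was 2.70 and the ratio of the mean CPM 6.46. The other TMED1 copy, ENSDARG00000017255, had 63.4, 63.9 and 61.5 CPM against 57.8, 55.5 and 52.3 CPM, with a log2 fold-change of -0.17 (limma adjusted p = 0.101) that was 0.11 when scaled to total reads. TMED4 fell, from 17.1, 16.3 and 19.2 CPM to 10.6, 11 and 11.9 CPM (-0.59, SE 0.11, limma adjusted p = 0.00165). TMED5 rose by 0.77, TMED9 by 0.69, TMED3 by 0.61, TMED2 by 0.44 and TMED10 by 0.43. SEC22A, grouped with the SNAREs only by its name, gave 0.29 (limma adjusted p = 0.0326). Its call was lost on leaving out any 1 of 4 libraries: without 0 dpa replicate 3 (0.0948) or the 4 dpa replicates 1 (0.0752), 2 (0.0841) and 3 (0.0621). SEC22B, TMED7 and TMED8 were not called (limma adjusted p = 0.107, 0.0814 and 0.0823). TMED7 was called without 0 dpa replicate 1 (0.0369) or 4 dpa replicate 2 (0.047), and TMED8 without 4 dpa replicate 3 (0.0375).

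CREB3-like factors are held in the ER membrane and cut to release a transcription factor. In mice Creb3l1 (OASIS) acts on collagen genes in osteoblasts and Creb3l2 on secretory pathway genes in cartilage. CREB3L1 had 15.4, 26.7 and 20.9 CPM at 0 dpa and 31.2, 28.3 and 37.6 CPM at 4 dpa, for a log2 fold-change of 0.64 (limma SE 0.19, adjusted p = 0.0173), but the call was lost without 4 dpa replicate 3 (0.0672). CREB3L2 had 16, 22.5 and 22.6 CPM against 26.4, 23.3 and 30.8 CPM and just missed the threshold, with a log2 fold-change of 0.41 (limma SE 0.16, adjusted p = 0.0502). It was called in 5 alternatives, at 0.00429 to 0.0495, and not in the others. Without 0 dpa replicate 1 the log2 fold-change was 0.26 (limma adjusted p = 0.121), and without 4 dpa replicate 3 it was 0.30 (0.165). The gene creb3l3l, of a group known in mammals from liver and gut, fell from 110, 103 and 97.8 CPM to 76.1, 73.1 and 70.5 CPM (-0.48, SE 0.08, limma adjusted p = 0.0014), and was not called with scaling to total reads (0.0894).

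Of the 9 FK506-binding proteins outside the secretory pathway 4 rose, 4 fell and fkbpl was not called. Over all genes 31.0% rose and 31.2% fell, so the even split is not particular to these genes. The gene fkbp1ab, a copy of the cytosolic rapamycin-binding FKBP12, had 0.634, 0.882 and 1.07 CPM at 0 dpa and 7.53, 6.72 and 6.52 CPM at 4 dpa, for a log2 fold-change of 2.11 (limma SE 0.13, adjusted p = 6.39e-06). In a limma-voom fit of the recovered reads it was 2.99, and the ratio of the mean CPM was 8.02. The other copy fkbp1aa rose by 0.58 (SE 0.08), FKBP1B by 0.80 (SE 0.14) and fkbp15a by 0.54 (SE 0.19). FKBP5, an Hsp90 co-chaperone induced by glucocorticoids in mammals, fell furthest. It had 1030, 2780 and 2100 CPM against 715, 836 and 821 CPM, a log2 fold-change of -1.18 (limma SE 0.31, adjusted p = 0.00999) that became -0.79 after quantile normalization. The gene fkbp16 fell as well (-0.87, SE 0.15, limma adjusted p = 0.00127). The falls of FKBP8 (-0.33) and FKBP4 (-0.27) were small and were not called with scaling to total reads, where FKBP4 was at 0.02. FKBP8 also lost its call without 0 dpa replicate 2 (0.0860) or 4 dpa replicate 3 (0.0749), and FKBP4 on leaving out any library but 0 dpa replicate 2, at 0.0595 to 0.119. The call of fkbp15a held only without 0 dpa replicate 1 and was lost without any other library, at 0.0617 to 0.0968, and its log2 fold-change was 0.34 without 0 dpa replicate 2.

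The 4 genes that share only the spelling were sec14l8, a lipid transfer protein gene (log2 fold-change 1.99, SE 0.15), LOXHD1 (0.81, SE 0.12), and the SSRP1 copies ENSDARG00000037397 (0.59, SE 0.10) and ENSDARG00000016994 (0.27, SE 0.12), of the histone chaperone FACT. The first 3 rose and the last was not called (limma adjusted p = 0.0843).

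Each paralog's share of the reads of its family's analysed genes was compared between days, so that the scaling between libraries cancels. A share depends on transcript length, and only the 2 days of 1 gene are set against each other. Of 25 shares tested 19 did not overlap between the days. The levels of 68.1% of all genes did not overlap, but a level is another measure than a share, and no background of shares was computed. Each of the 19 had a two-sided exact permutation p of 0.1, the smallest that 3 libraries against 3 allow. It was 0.132 after Benjamini-Hochberg adjustment, so none could pass the threshold. The shares of a family sum to 100% and are not independent. In the SEC24, SEC31 and SEC61A1 pairs each share mirrors the other, so both enter the count for the same shift.

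P4HA1 held 15.2, 16.9 and 13.8% of the P4HA reads at 0 dpa and 42.7, 43.4 and 35.8% at 4 dpa, and P4HA2 went from a mean of 82.3% ± 1.77 (SD, n = 3) to 55.3% ± 4.26 (SD, n = 3). PLOD2 went from a mean of 12.6% ± 2.49 to 30.9% ± 4.21 and PLOD3 from 22.7% ± 0.854 to 8.12% ± 0.387 (SD, n = 3 each), while the share of PLOD1 overlapped (64.8% and 61.0%). LOX went from a mean of 7.18% ± 2.52 to 16.6% ± 1.96 of the lysyl oxidase reads (SD, n = 3 each) and LOXL1 from 30.1% ± 5.53 to 7.11% ± 0.546. LOXL2 went from 45.7% ± 10.3 to 61.6% ± 3.28. Its days nearly met, at 57.5% in 0 dpa replicate 3 and 57.8% in 4 dpa replicate 1. In the coat, SEC31A went from 13.7, 15.1 and 15.2% of the SEC31 reads to 40.8, 35.8 and 40.4%, and SEC24D from 35, 37.1 and 41.2% to 54.1, 59.8 and 60.5% of the reads of the pair SEC24B and SEC24D. The KDEL receptors moved by a few percentage points at most. KDELR2 held a mean of 26.8% and 26.0% and kdelr2a 65.0% and 63.3%, both with overlap, and KDELR3 8.25% ± 0.662 and 10.7% ± 1.17 (SD, n = 3 each) without overlap. SEC61A1 ENSDARG00000005675 went from a mean of 16.3% ± 1.11 to 19.5% ± 1.28, and CREB3L1 from 14.4% ± 3.30 to 24.4% ± 2.34 (SD, n = 3 each).

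**Figure D4:**
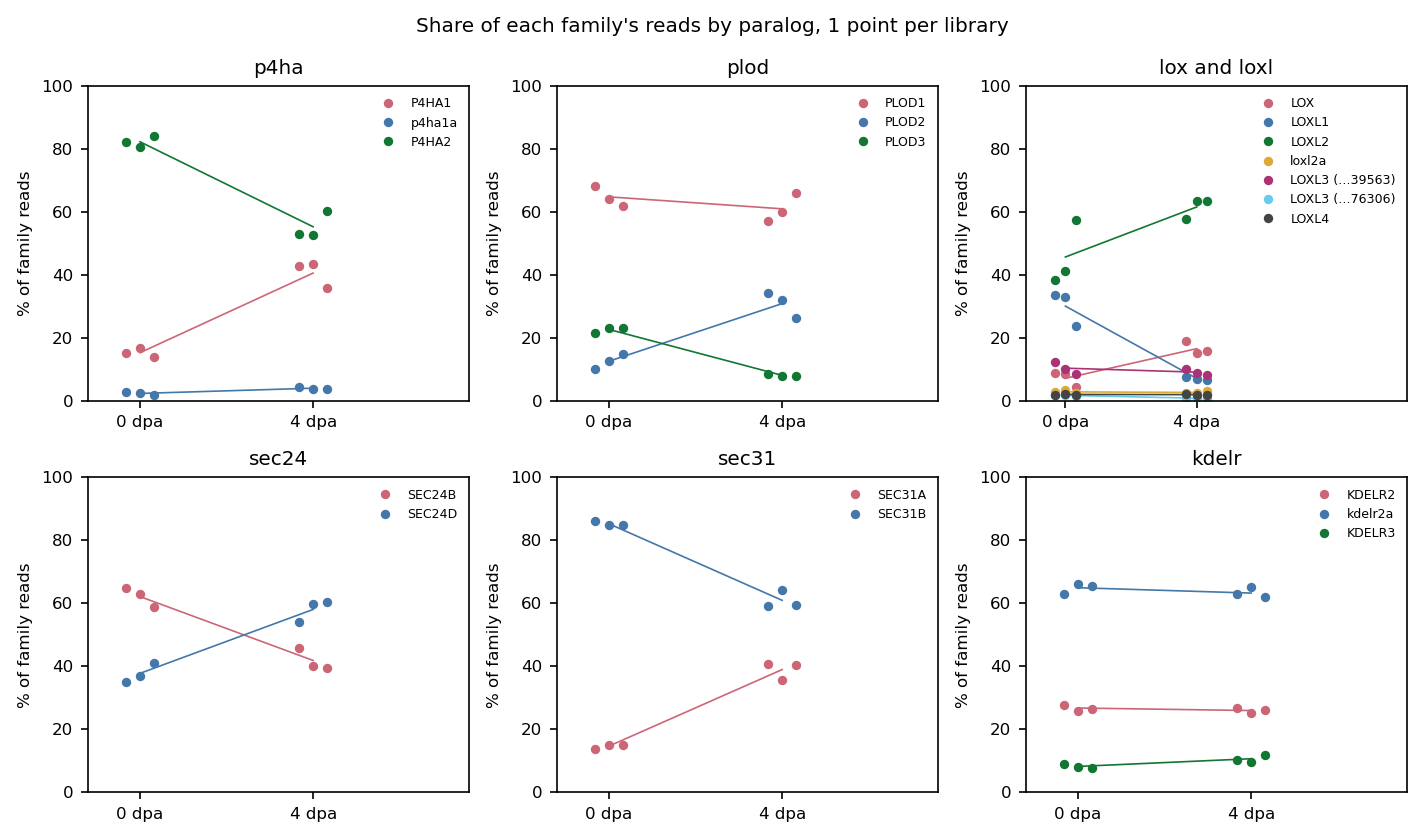
Share of a family's reads held by each paralog (y axis, %), with 1 point per library at 0 dpa and 4 dpa and a line between the means of the days, for 6 families. P4HA1, PLOD2, LOX, LOXL2, SEC24D and SEC31A hold more of their family at 4 dpa, and the KDEL receptor shares differ by at most 2.41 percentage points.

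Genes of the same pathway whose names the rule does not take were described from lists by function. All 13 genes listed as fibrillar and bone collagens rose, the cargo itself, with a median log2 fold-change of 2.68. The list also took the COL12A1 copies ENSDARG00000019601 (2.13) and ENSDARG00000078322 (2.42), which are not fibrillar collagens. Of 15 further genes of collagen modification 13 rose and 2 fell, with a median of 1.70. They included the PCOLCE2 copy ENSDARG00000055575 (4.18) and BMP1 (3.60), which help to cleave procollagen, the prolyl 3-hydroxylases P3H1 (2.29) and P3H3 (2.08), and PPIB (1.63), the partner of P3H1 and CRTAP. The falls were those of pcolceb (-2.20) and adamts2a (-0.39).

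Of 18 further ER folding genes 12 rose and 1 fell, with a median of 1.14. The lectin chaperone gene CALR rose by 1.78, MANF by 1.78, the Hsp90 of the ER, HSP90B1, by 1.21, and the disulfide isomerase relatives TXNDC12 by 2.18 and TXNDC5 by 1.89, whereas the oxidase ERO1A fell by 0.60. Among 11 partners of COPII 7 rose, led by the cargo receptor LMAN1 (2.24), SURF4 (1.64) and MCFD2 (1.58), and mia3, the zebrafish TANGO1 gene for collagen export, rose by 0.47. The COPI coat of the return route rose in 9 of 10 genes, with a median of 0.56 and no member at 2-fold.

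Of 20 genes listed for the unfolded protein response, the stress pathway that raises ER chaperones, 5 rose, 5 fell and 10 were not called, where 31.0% of all genes rose and 31.2% fell. The median was -0.06. ER chaperone genes that this response is known to raise, such as HYOU1 (1.68), SDF2L1 (1.11) and HSP90B1, stand in the ER folding list and not in this one, so the count depends on how the lists were drawn. The called rises ran from XBP1 (0.26, limma adjusted p = 0.0212) over SEL1L (0.28), TRIB3 (0.51) and DERL2 (0.66) to ASNS (0.67). The called falls ran from atf4b (-0.31, limma adjusted p = 0.0215) over MBTPS2 (-0.51), ppp1r15b (-0.66) and ppp1r15a (-0.84) to CHAC1. CHAC1 fell by more than 2-fold (-1.04, limma adjusted p = 0.0384), though its days overlapped. DDIT3, the CHOP gene, had 28.0, 33.9 and 23.9 CPM at 0 dpa and 23.5, 29.2 and 26.9 CPM at 4 dpa and was not called (limma adjusted p = 0.651). None of the 3 sensors was called: the log2 fold-change was -0.05 for EIF2AK3, 0.25 for atf6 and -0.61 for ern1 (limma adjusted p = 0.748, 0.166 and 0.0733). The gene ern1 had 54.5, 49.8 and 61.5 CPM against 48.3, 21.5 and 41.8 CPM, without overlap. These are mRNA levels, and the activity of the sensors and of the response was not measured.

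The 0 dpa libraries differed among themselves in a few members more than in the rest. The median SD of the log2 level over 3 libraries was 0.116 at 0 dpa and 0.103 at 4 dpa for the 75 genes, against 0.147 and 0.134 for all genes. For the 45 members with a mean log2 level of at least 5 it was 0.093 and 0.094. The widest 0 dpa spread was that of FKBP5 (SD 0.731), followed by LOXL2 (0.695), SEC23B (0.511), PDIA4 (0.489) and PLOD2 (0.392). The 0 dpa replicate 1 was the farthest from the median of its day in 35 members (46.7%, against 42.1% of all genes). It was the low library for FKBP5, SEC23B, PLOD2 and CREB3L1 and the high library for PDIA4. CHAC1, a gene of the unfolded protein response list, had the same order at 0 dpa (624, 2010 and 1600 CPM, against 533, 607 and 685 CPM at 4 dpa). Without that library the log2 fold-change was -1.59 for FKBP5 and -0.97 for SEC23B, so both falls were larger. What sets this library apart was not tested.

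**Figure D5:**
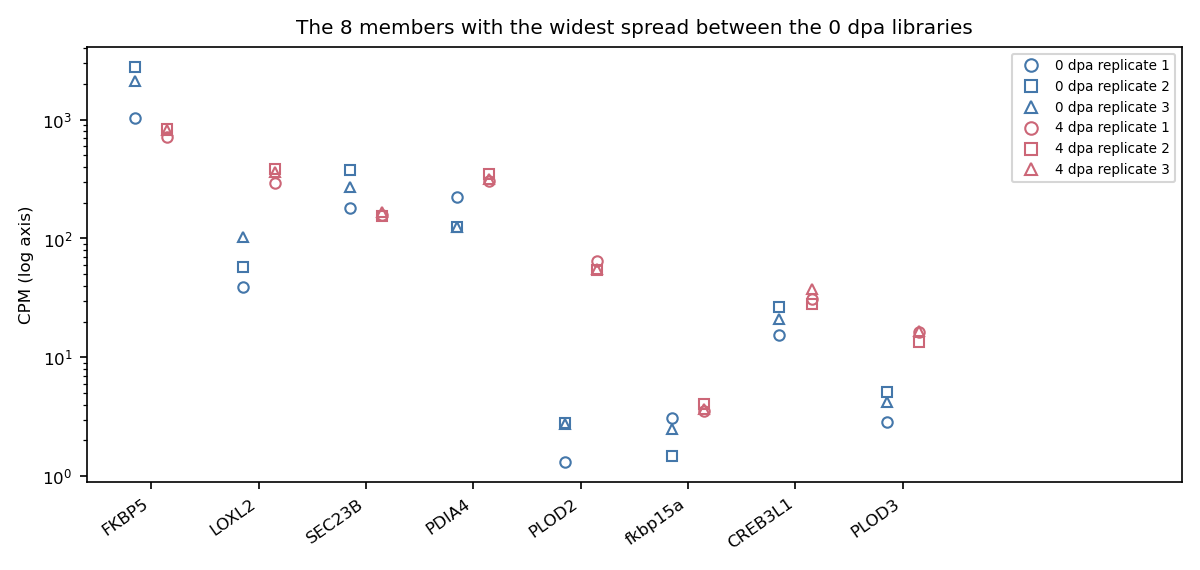
Level in CPM (log axis) of the 8 members with the widest spread at 0 dpa, with 1 symbol per library (circle, square and triangle for replicates 1, 2 and 3; blue for 0 dpa, red for 4 dpa). The 0 dpa replicate 1 is the lowest blue symbol for FKBP5, LOXL2, SEC23B, PLOD2, CREB3L1 and PLOD3 and the highest for PDIA4 and fkbp15a. The 4 dpa libraries lie closer together, which the choice of genes by their 0 dpa spread favours.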

How the data were processed

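The 6 mRNA libraries, 3 per day, were used; the small RNA libraries did not enter. The authors deposited log2 values, which proved to be log2(CPM + 1) with adjusted library sizes (0.855 to 0.908 times the read total at 0 dpa, 1.08 to 1.1 times at 4 dpa). Reads recovered from the value steps were whole within 0.05 reads in 100% of cells. The submitters' processing notes name Trimmomatic, RSEM, edgeR and the Zv9 build without their roles, and neither the aligner nor the strand setting of the counting is given in the sources used here. Names matched 13664 of 16951 Ensembl identifiers. Several zebrafish copies can carry 1 human-style name, and how reads shared by similar copies were counted is not given.

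Each library was shifted by a trimmed mean of log ratios (30% of ratios and 5% of levels trimmed at each end) and fitted with limma 3.58.1 in R 4.3.3 (lmFit, eBayes with trend), adjusted over all genes, threshold 0.05. The fit was run on simulated counts with the same dispersion for every gene and few changed genes. Far more genes were called in these data, so that run checks the code and not the calls reported here. Python 3.11.15, NumPy 2.4.6, pandas 2.3.3, SciPy 1.17.1 and Matplotlib 3.10.9 were used elsewhere. The members and lists were chosen with earlier results of these data known, so no list was tested. Named with values are all members of the p4ha, plod, lox, serpinh1, crtap, gpx7, kdelr, creb3l, sec23, sec24, sec31 and sec61 families. In each role the 3 largest rises and falls that were called without overlap, and members against their role's median, are named as well. A few further genes were named after their values were seen. Alternatives were scaling to total reads, no shift, quantile normalization, a pseudocount of 0.25 CPM, a filter of 1 CPM, a 2-fold minimum, a replicate block, limma-voom on the recovered reads and leaving out each library. P-values set the difference between the days against the spread between these libraries. Each library is a pool of several fins, so the spread between single fins is not seen.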

Additional observations from a re-analysis of the deposited data

How the results depend on the processing

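Apart from the 2-fold minimum, direction and call stayed as reported in the alternatives run for 57 of the 75 genes and changed in at least 1 for 18, among them no ER chaperone and, of the collagen enzymes, only LOXL1. With a 2-fold minimum 3683 of all genes were called, 38 of the members, 3 of the COPII coat and 10 of the translocon, cargo receptor and other genes, since fewer genes pass by construction. Leaving out 1 library gave 60 to 64 called members, 9100 to 10169 called genes and 5 to 6 COPII genes. The other settings gave 62 to 68 members, the highest with scaling to total reads. Scaled to total reads, FKBP4 was at 0.019, LOXL1 at 0.261, SEC31B at 0.278, SEC61G at 0.265 and the TMED1 copy ENSDARG00000017255 at 0.114, all with the other sign, as that scaling moved the median of all genes by 0.24. SEC31B was at 0.001 with the filter of 1 CPM and SEC61G at 0.073 after quantile normalization. With 1 library left out, fkbpl ran from -0.049 to 0.176, LOXL1 from -0.131 to 0.063, SEC31B from -0.054 to 0.034 and SEC61G from -0.070 to 0.027, and the difference in share, in percentage points, from -0.424 to 0.0911 for loxl2a and from -0.229 to 0.0312 for LOXL4; none of these was called. SEC22B, SEC62, TMED7, TMED8 and the SSRP1 copy ENSDARG00000016994 were called with scaling to total reads. The cause of these changes was not tested.

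Whether the replicate numbers pair the libraries could not be settled. Deviations from the day means over 16305 genes correlated at 0.16, -0.01 and 0.15 for the same numbers. The deviations of a day cancel each other, so these correlations are not independent and cannot exclude a pairing. The 0 dpa replicates 1 and 3 each correlated best with their own number. A replicate block called 65 members (58 higher, 7 lower) and 10486 of all genes (5185 higher, 5301 lower), and replicate 2 of neither day correlated best with its own number. Depth limited the lowest genes: p4ha1a, fkbp1ab and the TMED1 copy ENSDARG00000031325 had a mean under 1 CPM at 0 dpa, where the added 1 CPM shrinks a fold-change.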
